A study of Mus musculus with 2 samples.

Results

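The immediate early and heat shock genes, transcripts that cells raise within minutes of a stimulus or of protein damage, were followed across the cells of 2 libraries from mouse fibrosarcomas. The list held 35 of the 31053 genes counted: 26 immediate early genes and 9 heat shock genes. It was chosen by name, with earlier results of these data known. Each symbol matched a single row of the count tables, and the members together took 1992744 of 115066023 UMIs in the library titled Blood and 1944432 of 115272096 UMIs in the library titled Control. A UMI, or unique molecular identifier, marks 1 captured transcript molecule.

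Immediate early genes are transcribed without new protein synthesis after growth factors, inflammatory signals or antigen receptor signals. They encode transcription factors (the AP-1, EGR, NR4A and KLF families) and inhibitors that shut the same signals down (MAP kinase phosphatases, the mRNA-decay factor Zfp36 and NF-κB inhibitors). Heat shock genes encode chaperones that refold damaged protein, and the inducible ones are switched on by heat shock factor 1, which binds repeated GAA and TTC blocks in their promoters. Warm enzymatic digestion of tissue is known to raise both groups.

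The study set syngeneic fibrosarcomas, tumours of connective tissue origin grown under the skin of wild-type C57BL/6 mice, that were injected with autologous erythrocytes in buffered saline against tumours given saline, so the comparison addresses how blood placed in a tumour bears on its cells. There was 1 library per group, both from tumours of WT C57BL/6 mice. Each tumour was dissociated for 45 minutes at 37 °C in a mix of DNase I and collagenase B, and erythrocytes were then lysed. The library titled Blood carries the treatment label of PBS injection and the library titled Control that of erythrocyte injection, which is the opposite of what the titles say. The libraries are therefore called by their titles, and none of the differences can be assigned to the erythrocytes or to the saline. The number of animals per library, their age, the tumour line and any cell sort are not stated in the labels used here. With a single library per group no difference has a replicate check and no test was made. Intervals are exact 95% intervals that cover counting error only. Since the tumours of both libraries were digested alike, the part of a member's level that was present in the tumour and the part that came up during digestion cannot be told apart.

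The library titled Blood gave 11341 kept cells with a median of 6577 UMIs, and the library titled Control 8823 kept cells with a median of 9245 UMIs. Cells were clustered without the members and without 69 further genes of the same pathways, and clusters were named from marker genes. In each of 7 classes compared, every one of the class's 8 to 10 markers stood above 10 CPM (a gene's UMIs scaled to the total UMIs of its class, the usual CPM) in both libraries. The same markers had named the clusters, so their levels do not test the names. Macrophage-like cells numbered 4517 in the library titled Blood and 4607 in the library titled Control, T cell-like cells 1518 and 1189, monocyte-like cells 518 and 328, NK cell-like cells 378 and 362, and conventional dendritic cell (DC)-like cells 264 and 263. Neutrophil-like cells numbered 1773 in the library titled Blood and 130 in the library titled Control, and mesenchymal-like cells, where fibroblasts and tumour cells would fall, 54 and 103. Clusters that met no name held 2120 cells of the library titled Blood and 1637 of the library titled Control. The libraries shared 349 cell barcodes, and in 323 of them the copy with fewer UMIs held under 5% of the UMIs of the other copy. Shared barcodes made up 47 of the 54 mesenchymal-like cells titled Blood and 84 of the 103 titled Control. In both libraries 0 of these cells were the copy of under 5%, so leaving them out does not remove such copies. For that class levels are therefore given with the shared barcodes, and values without them follow beside its ratios.

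Immediate early transcripts took their highest share of RNA in neutrophil-like cells and their lowest in macrophage-like and mesenchymal-like cells, and the order was much alike in both libraries. Here and below, highest and lowest refer to these 7 classes. In the smaller B cell-like, migratory DC-like and osteoclast-like classes some members stood higher in one or both libraries, among them Nr4a3, Klf6, Jund, Fosb, Egr3, Dnajb1, Hspa1b and Hspa8, and some stood lower than in any of the 7. The 26 members summed to 42096 CPM in neutrophil-like cells titled Blood and 41486 CPM in those titled Control. Monocyte-like cells followed at 22512 and 22197 CPM. NK cell-like cells stood at 15172 CPM in the library titled Blood and 12337 CPM in the library titled Control, T cell-like cells at 14910 and 11690 CPM, and conventional DC-like cells at 13626 and 13781 CPM. Macrophage-like cells held 9629 and 9819 CPM and mesenchymal-like cells 6445 and 9085 CPM. Because CPM is a share of each class's RNA and neutrophil-like cells had few UMIs, the order per cell was different: a neutrophil-like cell carried on average 75.8 immediate early UMIs in the library titled Blood and 83.2 in the library titled Control, a macrophage-like cell 151 and 160, and a mesenchymal-like cell 407 and 497.

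**Figure D1:**
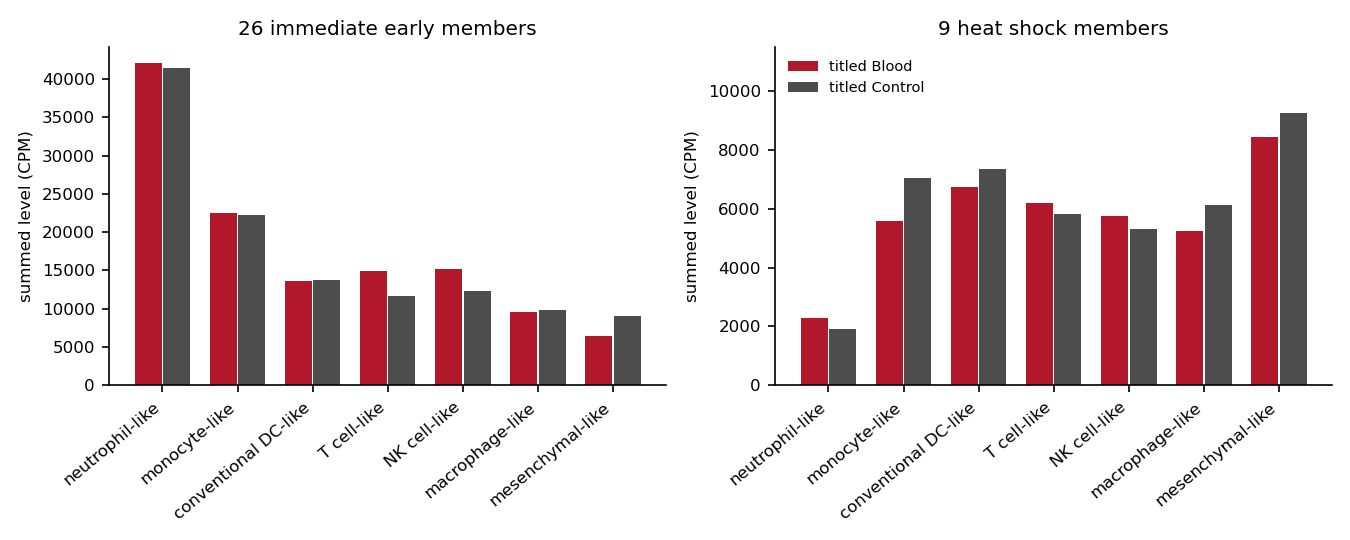
Summed level of the 26 immediate early members (left) and of the 9 heat shock members (right) in each cell class, in CPM, with the library titled Blood as the left bar of each pair and the library titled Control as the right bar. Neutrophil-like cells stand highest for the immediate early members, at 42096 and 41486 CPM, and lowest for the heat shock members, at 2282 and 1910 CPM.

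Of the 26 immediate early members, 16 were highest in neutrophil-like cells in both libraries. They were Fos, Fosl2, Junb, Egr1, Egr3, Klf6, Ier2, Ier3, Ier5, Btg1, Btg2, Dusp1, Dusp5, Zfp36, Nfkbia and Nfkbiz. Egr1, a zinc finger transcription factor of the first response wave, stood at 3886 CPM (3817 to 3955) in neutrophil-like cells titled Blood and 2658 CPM (2463 to 2863) in those titled Control. In the other 6 classes Egr1 lay between 106 and 627 CPM in the library titled Blood and between 79.8 and 759 CPM in the library titled Control, with mesenchymal-like cells the highest of them. Ier3, which encodes a regulator of survival under NF-κB and MAP kinase signals, stood at 4453 CPM in neutrophil-like cells titled Blood and 3252 CPM in those titled Control, and was 156 times its lowest class in the library titled Blood and 103 times in the library titled Control. Its lowest classes were the lymphocytes, at 55.4 CPM in T cell-like and 28.6 CPM in NK cell-like cells titled Blood and at 31.7 and 32.2 CPM in those titled Control. Dusp1, the phosphatase that switches MAP kinases off, was at 5772 CPM (5689 to 5856) in neutrophil-like cells titled Blood and 6216 CPM (5917 to 6527) in those titled Control. In mesenchymal-like cells Dusp1 was at 175 CPM in the library titled Blood and 251 CPM in the library titled Control.

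The remaining 10 members had their highest level elsewhere. Atf3, an AP-1 partner of the stress response, was highest in monocyte-like cells, at 928 CPM in the library titled Blood and 1081 CPM in the library titled Control, and lowest in T cell-like cells, at 81.9 and 59.5 CPM. Klf4, a factor of monocyte differentiation, was also highest in monocyte-like cells, at 644 and 713 CPM, and lowest in neutrophil-like cells, at 46.7 and 30.7 CPM. Nr4a1, an orphan nuclear receptor, had its highest level in monocyte-like cells too. The other NR4A receptors lay with lymphocytes and dendritic cells: Nr4a2 was highest in NK cell-like cells, at 278 CPM in the library titled Blood and 266 CPM in the library titled Control, while Nr4a3 was, of the 7 classes, highest in T cell-like cells titled Blood, at 131 CPM, and in conventional DC-like cells titled Control, at 98.1 CPM. Tnfaip3, which encodes the NF-κB inhibitor A20, was highest in T cell-like cells, at 735 CPM in the library titled Blood and 635 CPM in the library titled Control. Dusp2, a phosphatase named for its place in activated lymphocytes, stood at 538 and 358 CPM in T cell-like cells and at 515 and 446 CPM in NK cell-like cells, against 7.62 and 9.05 CPM in mesenchymal-like cells. Jund was highest in NK cell-like cells, at 1793 CPM in the library titled Blood and 1669 CPM in the library titled Control. Jun and Fosb, which encode AP-1 partners, had no common highest class: both were highest in mesenchymal-like cells titled Control, at 1749 and 758 CPM, but in the library titled Blood Jun was highest in neutrophil-like cells, at 1507 CPM, and Fosb in conventional DC-like cells, at 629.5 CPM. Over both groups of genes, 27 of the 35 members had the same highest class in both libraries.

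**Figure D2:**
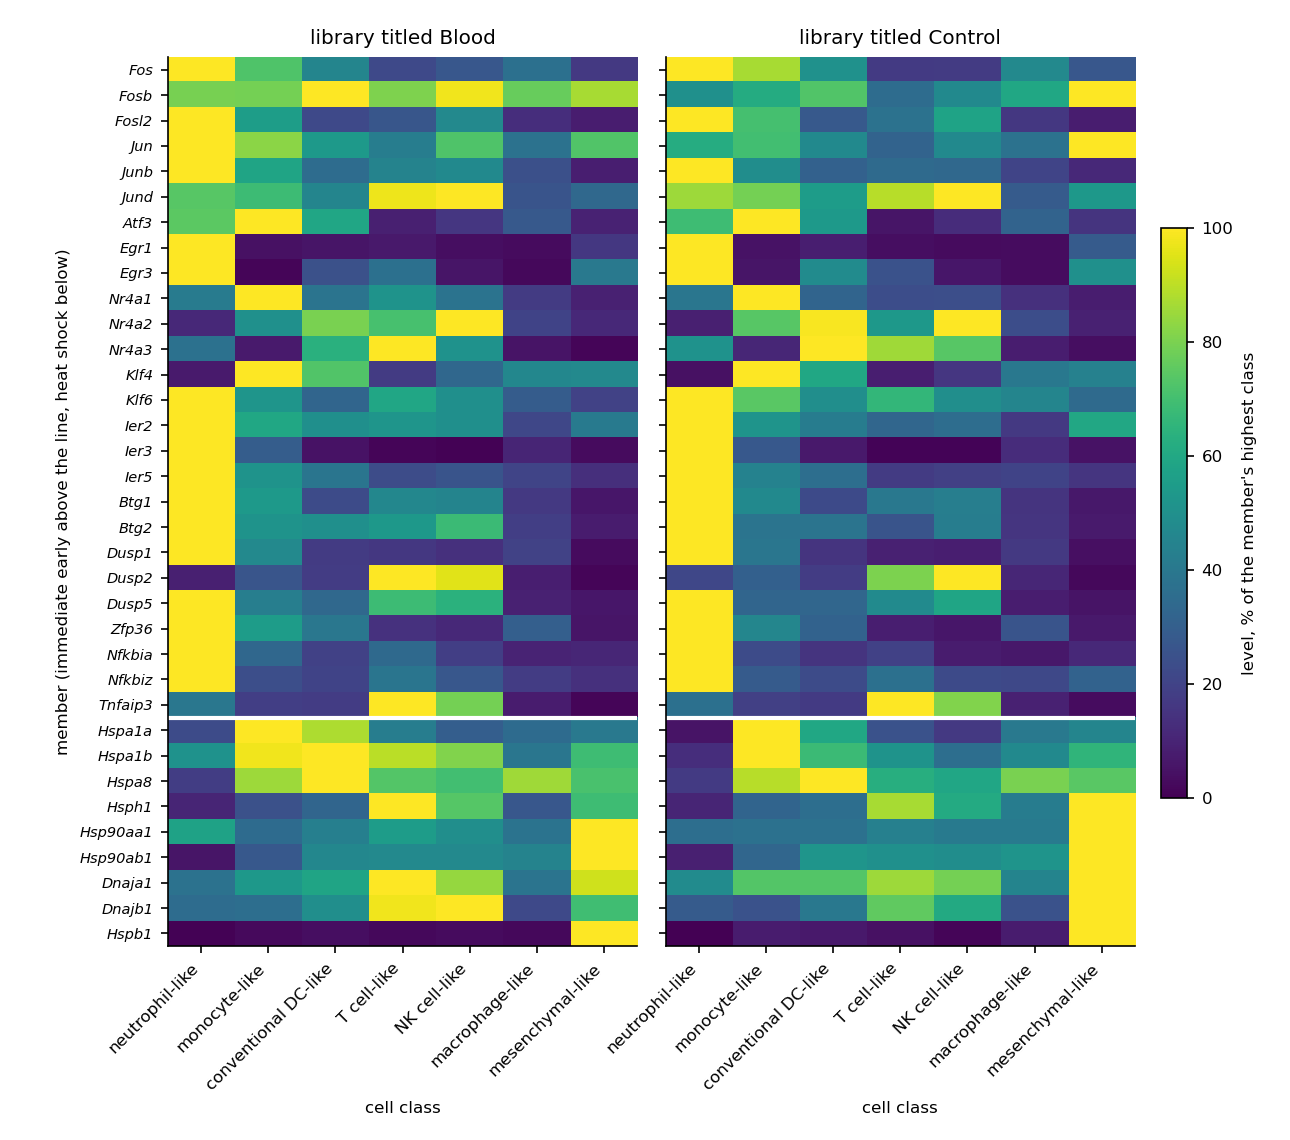
Level of each member in 7 cell classes, as a percentage of that member's highest class in the same library, with the library titled Blood in the left block and the library titled Control in the right block. Yellow fills the neutrophil-like column for 16 of the 26 immediate early members in both blocks, while among the 9 heat shock members below the line it lies in the mesenchymal-like, conventional DC-like, monocyte-like or lymphocyte columns.

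Heat shock transcripts stood highest in mesenchymal-like cells and lowest in neutrophil-like cells. The 9 members summed to 8438 CPM in mesenchymal-like cells titled Blood and 9270 CPM in those titled Control, and to 2282 and 1910 CPM in neutrophil-like cells, the class with the lowest sum in both libraries. The 5 classes between them lay at 5228 to 6726 CPM in the library titled Blood and 5320 to 7336 CPM in the library titled Control. Hsp90ab1, the constitutive cytosolic HSP90, stood at 3418 CPM (3356 to 3480) in mesenchymal-like cells titled Blood and 3226 CPM in those titled Control, against 192 and 280 CPM in neutrophil-like cells. Its inducible partner Hsp90aa1 was also highest in mesenchymal-like cells, at 1366 CPM in the library titled Blood and 1460 CPM in the library titled Control. Hspa8, the constitutive HSP70, was of the 7 classes highest in conventional DC-like cells, at 2710 and 3326 CPM, and lowest in neutrophil-like cells, at 497 and 564 CPM. Hspb1, the small heat shock protein Hsp27, was at 150 CPM (137 to 163) in mesenchymal-like cells titled Blood and 110 CPM (101 to 119) in those titled Control, and under 10 CPM in the other 6 classes of both libraries. Outside the 7 classes, the unnamed cluster 18, led by Fabp4, Igfbp7 and Col4a1, scored highest for mesenchymal markers. Its heat shock sums were 7468 CPM in the library titled Blood and 9205 CPM in the library titled Control. Hspb1 was there at 83.4 and 281 CPM, Hsp90ab1 at 3171 and 3596 CPM, and Hsp90aa1 at 1295 and 1691 CPM. With every shared barcode left out, Hspb1 was at 13.4 CPM in the 7 mesenchymal-like cells left of the library titled Blood and 61.5 CPM in the 19 left of the library titled Control, and Hsp90ab1 at 1766 and 3023 CPM. The cochaperones Dnaja1 and Dnajb1 and the HSP110 gene Hsph1 were highest in T or NK cell-like cells in the library titled Blood and in mesenchymal-like cells in the library titled Control.

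Hspa1a and Hspa1b encode the inducible HSP70 and are neighbours on chromosome 17. Their transcripts have 2967 and 2803 bases and share 92.2% of aligned positions up to the last 500 bases, but 50.6% within those last 500 bases, where 3' counting reads, so UMIs can be given to 1 gene of the pair. The 250 bases before their starts are shown because the ratio between the libraries was largest for these genes, in neutrophil-like cells: 247 of the 250 positions are identical. Hspb1 is set beside them as a member that was, of the 7 classes, highest in mesenchymal-like cells. Bases are 5' to 3' on the gene's strand, from RefSeq on GRCm38.p6, at chr17:34972157-34972406 (minus strand), chr17:34959239-34959488 (minus strand) and chr5:135887669-135887918 (plus strand). Capitals mark the heat shock factor motif GAANNTTC and, in the HSP70 pair, the single match to the consensus NF-κB site.
Hspa1a: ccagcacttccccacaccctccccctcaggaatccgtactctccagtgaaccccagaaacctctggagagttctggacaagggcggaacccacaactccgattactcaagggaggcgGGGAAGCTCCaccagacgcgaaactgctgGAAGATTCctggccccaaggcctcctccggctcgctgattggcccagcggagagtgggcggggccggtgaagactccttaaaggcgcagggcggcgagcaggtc
Hspa1b: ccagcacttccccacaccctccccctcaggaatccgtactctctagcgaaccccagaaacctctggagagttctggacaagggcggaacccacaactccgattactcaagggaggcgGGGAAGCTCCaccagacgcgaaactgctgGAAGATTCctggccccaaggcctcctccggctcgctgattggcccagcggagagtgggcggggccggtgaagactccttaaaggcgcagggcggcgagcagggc
Hspb1: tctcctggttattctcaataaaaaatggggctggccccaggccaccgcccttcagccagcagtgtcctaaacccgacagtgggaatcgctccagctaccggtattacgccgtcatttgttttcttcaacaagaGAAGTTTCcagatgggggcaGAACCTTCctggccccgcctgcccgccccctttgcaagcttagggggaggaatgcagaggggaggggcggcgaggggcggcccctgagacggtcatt

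Promoter windows were found for 28 of the 35 members and not used for Egr1, Egr3, Ier2, Nfkbiz, Hspa8, Hsp90aa1 and Hsp90ab1. Searched on both strands, GAANNTTC or TTCNNGAA stood in a window of 5 of the 6 heat shock members matched (Hspa1a, Hspa1b, Hspb1, Hsph1 and Dnaja1, not Dnajb1), of 2 of the 22 immediate early members (Jun and Fosl2), and of 12.8% of all 32851 promoter windows. The cyclic AMP response motif TGACGTCA stood in 2 immediate early windows, Dusp1 and Btg2, and in 1.55% of all windows. The CArG box bound by serum response factor stood in Zfp36 and Dusp5 and in 1.47% of all windows, and TGACTCA, the AP-1 motif, in Tnfaip3 and in 4.46%. The consensus NF-κB site stood in 6 immediate early windows (Fos, Fosb, Fosl2, Ier3, Nfkbia and Tnfaip3), in Hspa1a and Hspa1b, and in 7.25% of all windows. A match is a run of letters in a window and says nothing of binding. The windows of 4 members that stood highest in neutrophil-like cells are printed because they hold 3 different motifs beside the same expression pattern, at chr17:26508473-26508722 (minus strand), chr7:28379229-28379478 (minus strand), chr12:55492648-55492897 (minus strand) and chr12:85473640-85473889 (plus strand). The capitals mark TGACGTCA in Dusp1, the CArG box in Zfp36 and the NF-κB site in Nfkbia and Fos.
Dusp1: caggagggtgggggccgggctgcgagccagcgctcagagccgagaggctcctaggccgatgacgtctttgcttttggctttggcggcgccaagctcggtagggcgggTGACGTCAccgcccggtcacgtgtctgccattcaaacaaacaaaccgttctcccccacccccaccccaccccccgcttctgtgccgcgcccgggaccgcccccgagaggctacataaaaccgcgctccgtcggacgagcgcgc
Zfp36: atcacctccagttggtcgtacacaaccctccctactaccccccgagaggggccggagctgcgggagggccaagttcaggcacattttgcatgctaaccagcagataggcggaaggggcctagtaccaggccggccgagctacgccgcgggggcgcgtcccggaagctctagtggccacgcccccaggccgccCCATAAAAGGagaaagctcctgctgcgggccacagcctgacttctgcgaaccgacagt
Nfkbia: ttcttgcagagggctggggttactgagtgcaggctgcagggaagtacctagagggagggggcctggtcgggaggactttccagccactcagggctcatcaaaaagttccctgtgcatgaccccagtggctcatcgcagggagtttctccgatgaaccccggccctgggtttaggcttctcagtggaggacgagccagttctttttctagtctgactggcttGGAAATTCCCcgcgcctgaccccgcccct
Fos: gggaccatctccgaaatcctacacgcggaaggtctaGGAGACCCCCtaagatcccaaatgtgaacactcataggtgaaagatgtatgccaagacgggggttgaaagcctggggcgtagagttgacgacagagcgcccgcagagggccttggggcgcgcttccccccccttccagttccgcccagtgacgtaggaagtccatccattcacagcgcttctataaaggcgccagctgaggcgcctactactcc

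In T cell-like cells nearly all immediate early genes were higher in the library titled Blood than in the library titled Control. Differences are given as log2 ratios of CPM plus 5, titled Blood over titled Control, for members that had 10 or more UMIs in all and reached 10 CPM in one of the libraries. All 26 immediate early members passed that filter in T cell-like cells, 25 lay above 0 and the exception was Fosl2 at -0.25. Fosl2 lay above 0 in 3 of the 4 clusters of the class, between -0.16 and 0.10, and at 0.01 with the clusters at equal weight. Their median log2 ratio was 0.44, against 0.04 over all 7718 genes measured. Of them, 9 were at least 1.5-fold higher and 0 at least 1.5-fold lower, while 1.08% of all genes measured were at least 1.5-fold higher in these cells and 1.06% lower.

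Egr1 had the largest difference among the members in T cell-like cells, at 261 CPM (249 to 272) in the library titled Blood and 100.1 CPM (92.7 to 108) in the library titled Control, a ratio of 2.60 (2.38 to 2.84). Egr3, which restrains T cell activation together with its relatives, was at 49.4 CPM (44.7 to 54.6) in the library titled Blood and 20.2 CPM (16.9 to 23.9) in the library titled Control. The intervals of both genes cover counting error only, and neither difference was tested. Fosb stood at 509 CPM in the library titled Blood and 268 CPM in the library titled Control, and its ratio was 1.90 (1.79 to 2.01). Fos was at 1036 CPM (1014 to 1059) in the library titled Blood and 682 CPM (662 to 702) in the library titled Control. The inhibitors of the same signals were higher as well. Dusp1 was at 932 and 578 CPM and Zfp36, which speeds the decay of cytokine mRNA, at 338 and 215 CPM. The other 3 members past 1.5-fold were Klf4, at 113 and 60.8 CPM, Ier3, at 55.4 and 31.7 CPM, and Nr4a3, at 131 and 84.0 CPM. Junb and Btg1 differed least among members above 0, both with a log2 ratio of 0.11.

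The median lay above 0 in each of the 4 T cell-like clusters, which differ in their leading genes and in their share of each library. Cluster 12, led by Tcf7, Klra1, Klra7 and Trdc, held 287 cells of the library titled Blood and 482 of the library titled Control. Its T cell marker score was 0.56, with NK cells scoring second by a margin of 0.31, and none of the T cell markers was among its 10 leading genes. Its immediate early median was 0.54, and 12 members were past 1.5-fold upward and 0 downward, where 2.85% of all genes were higher and 2.76% lower. Cluster 14, led by Foxp3 and Il2ra, the genes of regulatory T cells, held 257 and 231 cells and had a median of 0.24, with 2 members higher and 1 lower, where 4.99% of all genes were higher and 4.69% lower. Cluster 17, led by Cd8b1 and Cd8a, held 706 and 285 cells and had a median of 0.37, with 8 members higher and 0 lower, where 1.97% of all genes were higher and 1.66% lower. Cluster 20, led by Cd4 and Cd40lg, held 268 and 191 cells and had a median of 0.50, with 12 members higher and 0 lower, where 4.93% of all genes were higher and 6.64% lower. Of the 26 members, 17 were above in the library titled Blood in all 4 clusters, against 12.3% of the 6791 genes measured in all 4. Egr1 was at 218 CPM in the library titled Blood and 48.5 CPM in the library titled Control in cluster 12, at 272 and 115 CPM in cluster 14, at 194 and 98.6 CPM in cluster 17, and at 499 and 230 CPM in cluster 20. Fos was highest in cluster 12, at 1650 and 883 CPM, and lowest in cluster 17, at 635 and 271 CPM. With the 4 clusters given equal weight the class median was 0.41.

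In NK cell-like cells 20 of 25 measured immediate early members were above 0. Their median was 0.20, against 0.02 over all genes, with 8 members past 1.5-fold upward and 0 downward, where 2.63% of all genes were higher and 1.86% lower. Whether these values differ from those of T cell-like cells was not tested. Fos was at 1286 CPM (1237 to 1336) in the library titled Blood and 688 CPM (654 to 723) in the library titled Control. Klf4 was at 216 and 112 CPM, and Nfkbia, the NF-κB inhibitor IκBα, at 365 and 209 CPM. The other 5 were Zfp36, Fosb, Egr1, Dusp1 and Klf6, with log2 ratios of 0.79, 0.76, 0.74, 0.65 and 0.59. Fos, Fosb, Egr1, Klf4, Dusp1 and Zfp36 were past 1.5-fold in both lymphocyte classes.

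Neutrophil and macrophage RNA in the lymphocyte classes moved in part with these differences. The 9 neutrophil markers summed to 99.9 CPM in T cell-like cells titled Blood and 29.1 CPM in those titled Control, which is 0.175% and 0.0407% of their sum in neutrophil-like cells, with none at 0. In NK cell-like cells they summed to 144 CPM in the library titled Blood and 20.8 CPM in the library titled Control, 0.252% and 0.0291%, with Retnlg at 0 in the library titled Control. At those shares of the neutrophil-like level the 26 members would sum to 73.6 and 16.9 CPM in T cell-like cells. In NK cell-like cells they would sum to 106 and 12.1 CPM. Such a sum does not speak to single members. The 9 macrophage markers summed to 597 CPM in T cell-like cells titled Blood and 749 CPM in those titled Control, and to 670 and 604 CPM in NK cell-like cells. The median UMIs per cell were 4811 and 5041 in T cell-like and 4194 and 4811 in NK cell-like cells. The parts of neutrophil RNA, macrophage RNA and cell depth in the differences were not tested.

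**Figure D3:**
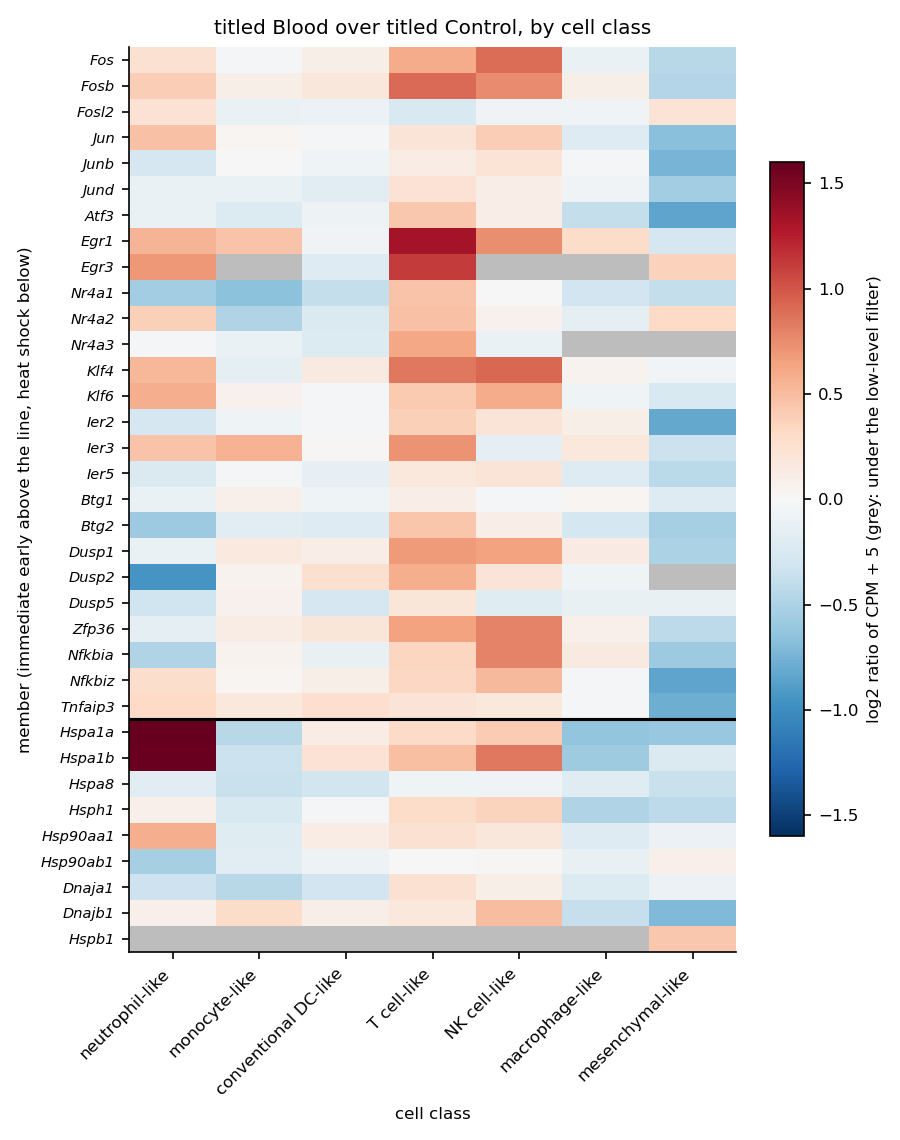
Log2 ratio of CPM plus 5, titled Blood over titled Control, for each member (rows) in 7 cell classes (columns), with grey for members under the low-level filter. Red fills the T cell-like column for 25 of 26 immediate early members, and blue fills the macrophage-like column for all 8 measured heat shock members, while both HSP70 genes are dark red in neutrophil-like cells.

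The heat shock members were lower in macrophage-like cells titled Blood than in those titled Control. All 8 that passed the filter lay below 0, with a median log2 ratio of -0.29, against 0.01 over all 7780 genes measured. Only Hspa1a was past 1.5-fold, at 318 CPM (314 to 322) in the library titled Blood and 496 CPM (491 to 501) in the library titled Control, a ratio of 0.640 (0.630 to 0.651), while 0.887% of all genes were at least 1.5-fold lower. The call ended with CPM averaged over cells, at a log2 ratio of -0.53, and with clusters at equal weight, at -0.48. Hspa1b was at 202 CPM (198 to 205) in the library titled Blood and 302 CPM (298 to 306) in the library titled Control. Hsph1, which reloads HSP70 with ATP, was at 43.6 and 62.8 CPM, and Dnajb1, the cochaperone that brings HSP70 its clients, at 48.5 and 64.0 CPM. The constitutive chaperones Hspa8 and Hsp90ab1 had log2 ratios of -0.20 and -0.12. Hspb1, which did not pass, was at 3.14 and 8.50 CPM.

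The direction was shared by the 6 macrophage-like clusters. The heat shock median lay between -0.36 and -0.14 in them, and 6 of the 8 members measured in all 6 clusters were higher in the library titled Control in each, against 9.70% of the 6981 genes so measured. Hspa1a stood at 309 CPM in the library titled Blood and 573 CPM in the library titled Control in the proliferating cluster 1, led by Nusap1 and Mki67, and at 278 and 423 CPM in cluster 0, led by Ccl8 and Folr2. It was closest in cluster 9, led by Cxcl9 and Gbp2, at 438 and 472 CPM, and in cluster 7, led by the interferon-induced Ifit3 and Ifit2, at 447 and 565 CPM. Counted in UMIs per cell, macrophage-like cells carried 82.2 heat shock UMIs in the library titled Blood and 99.9 in the library titled Control. The 9 neutrophil markers summed to 225 CPM in macrophage-like cells titled Blood and 126 CPM in those titled Control, and their part in these differences was not tested.

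The immediate early members of macrophage-like cells lay on both sides of 0. Of 24 measured, 9 lay above and 15 below 0, their median log2 ratio was -0.04, and 0 were past 1.5-fold in either direction, where 0.398% of all genes were at least 1.5-fold higher. Fos was at 1745 CPM (1735 to 1754) in the library titled Blood and 1876 CPM (1866 to 1885) in the library titled Control. Atf3 had the lowest log2 ratio, -0.39, and Egr1 the highest, 0.29. Clusters within the class spread widely: Junb was at 1417 CPM in cluster 3 and 575 CPM in cluster 1 of the library titled Blood, and at 1560 and 615 CPM in the same clusters of the library titled Control. Nfkbia was highest in cluster 9, led by genes induced by interferon gamma, at 454 CPM in the library titled Blood and 397 CPM in the library titled Control, and lowest in cluster 3, at 150 and 142 CPM.

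**Figure D4:**
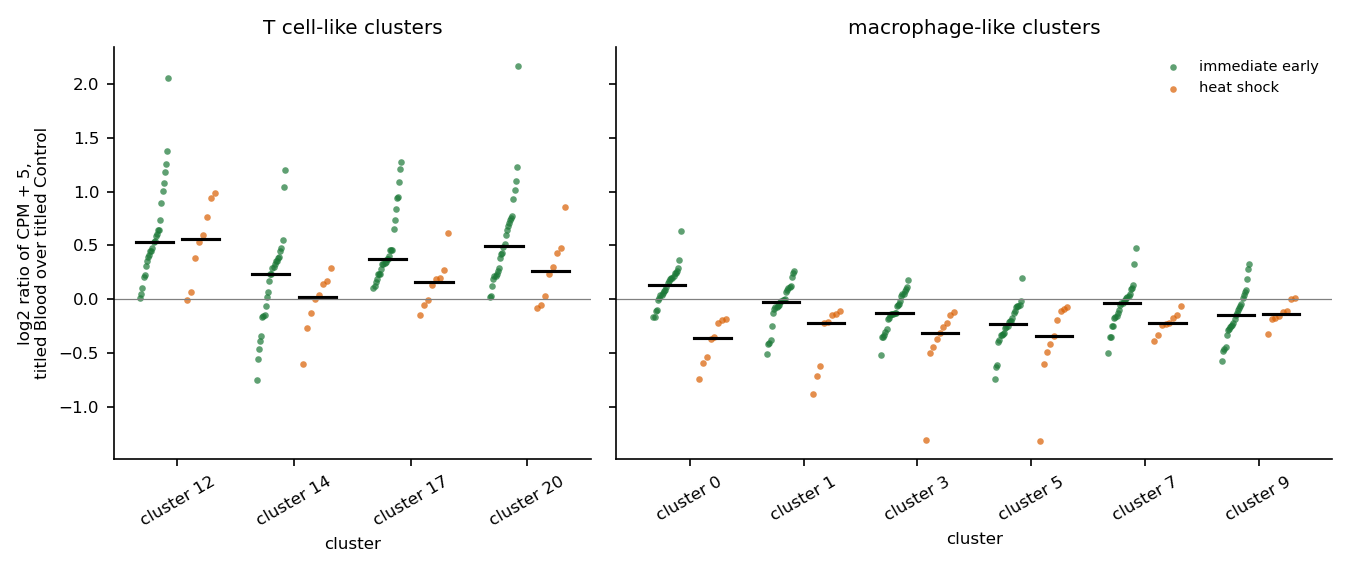
Log2 ratio of CPM plus 5, titled Blood over titled Control, in each of 4 T cell-like clusters (left) and 6 macrophage-like clusters (right); each point is 1 measured member, green for immediate early and orange for heat shock, and the black line is the median. Immediate early medians run from 0.24 to 0.54 in the T cell-like clusters, and heat shock medians from -0.36 to -0.14 in the macrophage-like clusters.

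In monocyte-like cells most heat shock members were lower in the library titled Blood as well. The heat shock median was -0.29 over 8 members, 7 of them below 0 and 0 past 1.5-fold, where 2.33% of all genes were higher and 1.44% lower. Hspa1a was at 905 CPM (873 to 937) in the library titled Blood and 1230 CPM (1183 to 1277) in the library titled Control, and Dnaja1, a cochaperone of HSP70, at 337 and 459 CPM. The 2 clusters of the class differed. In cluster 13, led by Hp and Ace, the heat shock median was -0.06. Hspa1a was there at 1444 CPM in the library titled Blood and 1538 CPM in the library titled Control. In cluster 15.3, led by Dmkn and Chil3, the median was -0.56 and Hspa1a was at 377 and 706 CPM. An unnamed cluster led by Ly6i and Plac8 scored highest for monocyte markers, but its margin of 0.087 was under the limit. It went the other way, with a heat shock median of 0.24 and Hspa1a at 688 and 401 CPM. The class median lay between -0.16 and -0.13 under 3 other settings of the clustering or the cell filter. The immediate early median was 0.03, and the single member past 1.5-fold was Nr4a1, a marker of patrolling monocytes, at 396 CPM (375 to 418) in the library titled Blood and 625 CPM (592 to 659) in the library titled Control. Its log2 ratio of -0.65 lay between -0.58 and -0.42, under 1.5-fold, under 6 alternatives (Scrublet calls kept, a resolution of 2, members kept for clustering, the stricter cell filter, CPM averaged over cells, and clusters at equal weight). The Ace-led cluster 13 held 252 of the 518 cells titled Blood and 205 of the 328 titled Control.

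In T cell-like cells most heat shock members were higher in the library titled Blood, with a median of 0.24 over 8 members, 6 of them above 0 and 0 past 1.5-fold, where 1.08% of all genes were higher. The clusters differed here. In cluster 12 the median was 0.56 and 4 members were at least 1.5-fold higher, where 2.85% of all genes were: Hspa1b at 916 CPM in the library titled Blood and 459 CPM in the library titled Control, Dnajb1 at 501 and 257 CPM, Hspa1a at 716 and 419 CPM, and Hsph1 at 234 and 153 CPM. In the Foxp3-led cluster 14 the median was 0.02 and Hspa1a was at 110 CPM in the library titled Blood and 170 CPM in the library titled Control. NK cell-like cells had a median of 0.27 over 8 members, and Hspa1b alone passed 1.5-fold, as 2.63% of all genes did upward, at 416 CPM (388 to 445) in the library titled Blood and 229 CPM (210 to 250.2) in the library titled Control.

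Neutrophil-like cells held the largest ratios of any member in the 7 classes, in the inducible HSP70 pair. Hspa1a was at 207 CPM (191 to 223, 660 UMIs) in the library titled Blood and 65.2 CPM (38.0 to 104, 17 UMIs) in the library titled Control, a ratio of 3.17 (1.97 to 5.48). Hspa1b was at 262 CPM (245 to 281, 837 UMIs) in the library titled Blood and 84.4 CPM (52.9 to 128, 22 UMIs) in the library titled Control, a ratio of 3.11 (2.04 to 4.99). These were 2 of the 8 measured heat shock members past 1.5-fold, in a class where 20.5% of all genes passed that limit upward and 14.6% downward; the library titled Control held 130 of these cells. The HSP70 UMIs lay mostly in 1 of 5 subclusters, which was led by Plcxd2, Hspa1b and Gpnmb and held 540 of 1773 neutrophil-like cells titled Blood and 19 of 130 titled Control. Within it Hspa1a was at 513 CPM (474 UMIs) in the library titled Blood and 341 CPM (12 UMIs) in the library titled Control. In the other 4 subclusters Hspa1a lay between 32.9 and 160 CPM in the library titled Blood, and in the library titled Control these subclusters held 0, 3, 0 and 2 Hspa1a UMIs, too few for a level. How far the ratio of the class goes with the mix of subclusters was not tested beyond giving equal weight to the 4 subclusters with at least 10 cells in each library, which left a log2 ratio of 0.92 for Hspa1a, against 1.59 as reported; the Hspa1a UMIs titled Control in those 4 are the few just given. The same subcluster held Hsp90aa1 at 1783 and 1763 CPM and little Cxcr2, the chemokine receptor of mature neutrophils, at 169 and 171 CPM, against 976 to 1556 CPM of Cxcr2 in the others titled Blood and 1212 to 1664 CPM in the others titled Control that held at least 10 cells.

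**Figure D5:**
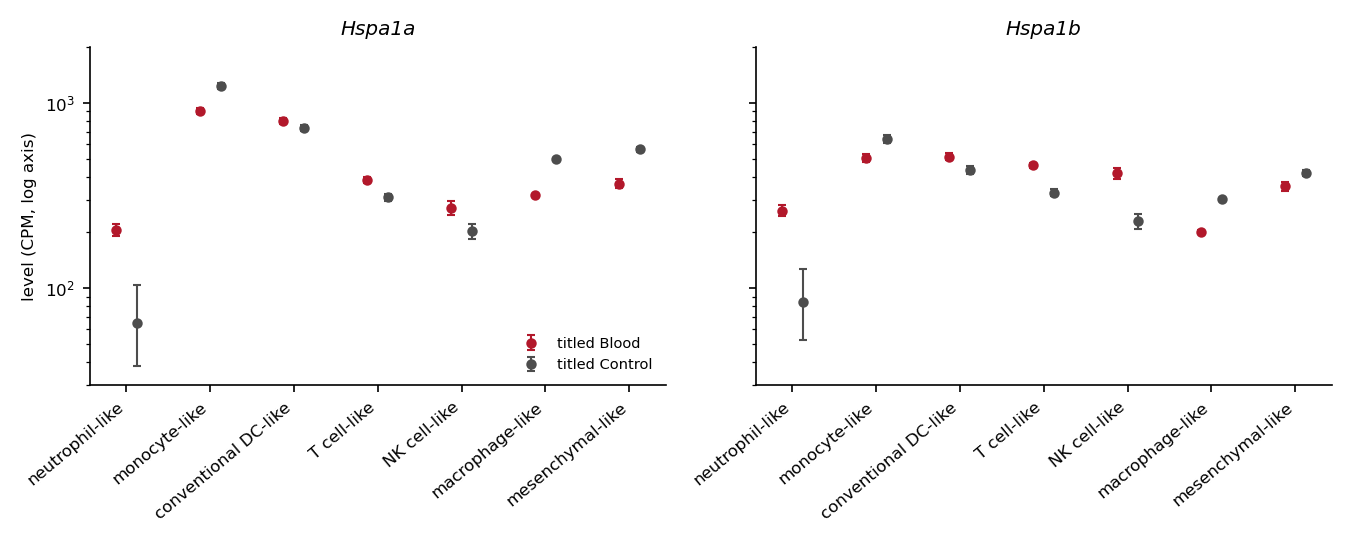
Level of the inducible HSP70 genes Hspa1a (left) and Hspa1b (right) by cell class, in CPM on a log axis, with red points for the library titled Blood on the left of each pair, grey points for the library titled Control, and bars for exact 95% Poisson intervals. In neutrophil-like cells the point titled Blood lies above the point titled Control for both genes (207 and 65.2 CPM of Hspa1a), while in macrophage-like cells it lies below (318 and 496 CPM).

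Among the immediate early members of neutrophil-like cells the median was -0.06 over 26, with 12 above and 14 below 0. Of them 1 was at least 1.5-fold higher and 1 lower, where 20.5% of all genes were higher and 14.6% lower. Egr3 was the member past 1.5-fold upward, at 133 CPM (121 to 147) in the library titled Blood and 80.5 CPM (49.9 to 123, 21 UMIs) in the library titled Control, and its ratio turned to -0.09 on the log2 scale when the 4 subclusters with at least 10 cells in each library had equal weight. Dusp2 was the member past 1.5-fold downward, at 47.6 and 95.9 CPM. Fos was at 4705 CPM (4630 to 4781) in the library titled Blood and 3969 CPM (3731 to 4218) in the library titled Control, and Btg2, an antiproliferative gene, at 1512 and 2270 CPM. The subclusters spread widely: Fos ran from 3332 to 9862 CPM and Junb from 2235 to 9834 CPM among those titled Blood, and Fos from 2745 to 5536 CPM and Junb from 2104 to 9445 CPM among the 4 titled Control that held at least 10 cells.

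In mesenchymal-like cells most members were lower in the library titled Blood. The immediate early median was -0.44 over 24 members, 21 of them below 0, with 6 at least 1.5-fold lower and 0 higher, where 1.82% of all genes were lower and 1.22% higher. Jun was at 1099 CPM (1064 to 1135) in the library titled Blood and 1749 CPM (1715 to 1784) in the library titled Control, Junb at 348 and 586 CPM, and Ier2 at 286 and 508 CPM. The other 3 were Atf3, Nfkbiz and Tnfaip3. Among heat shock members Hspa1a, at 366 and 561 CPM, and Dnajb1, at 152 and 252 CPM, were past 1.5-fold. These values rest on 54 and 103 cells, most of them with shared barcodes. With every shared barcode left out, 7 and 19 cells remained, the immediate early median was -0.12, and 5 members were at least 1.5-fold higher and 5 lower, where 17.9% of all genes were higher and 24.8% lower. The log2 ratios of the members named above were then -0.48 for Jun, -0.12 for Junb, -1.85 for Ier2, -0.28 for Hspa1a and -0.96 for Dnajb1. Tnfaip3 turned to 0.86, and Zfp36, Ier3 and Nr4a1 stood at 0.83, 1.06 and 1.33. In the 19 cells titled Control 3 UMIs made 9.71 CPM, while Tnfaip3 was at 16.2 CPM and Nr4a1 at 12.9 CPM. The ratios of these genes therefore rest on few UMIs. Hspb1 and Hsp90ab1 lay at -1.86 and -0.77, against 0.43 and 0.08 with those barcodes. The 9 macrophage markers stood at 8.40% of their macrophage-like sum in mesenchymal-like cells titled Blood and 4.61% in those titled Control, and their part in these differences was not tested.

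In conventional DC-like cells the immediate early median was -0.06 over 26 members and the heat shock median 0.03 over 8, with 0 members past 1.5-fold, where 1.56% of all genes were higher and 1.48% lower. Hspa8 was at 2710 CPM in the library titled Blood and 3326 CPM in the library titled Control. With each library clustered on its own, which names a different set of cells, members of this class did pass 1.5-fold: the log2 ratio was -1.74 for Fosl2, -1.71 for Nfkbia, -1.53 for Tnfaip3, -1.13 for Dusp2 and 1.20 for Egr3. Among the smaller classes, osteoclast-like cells (74 and 81 cells) had 4 of 24 measured immediate early members at least 1.5-fold higher and 1 lower, where 6.27% of all genes were higher and 3.47% lower, and Hspb1 at 53.9 CPM (42.6 to 67.2) in the library titled Blood and 11.3 CPM (7.18 to 17.0) in the library titled Control. Of those cells 41 titled Blood and 43 titled Control carried shared barcodes, and without them Hspb1 was at 44.9 CPM in the library titled Blood and had 0 UMIs in the library titled Control, where a count of 0 leaves room for a level of up to 3.62 CPM. Migratory DC-like cells (60 and 63 cells) had 6 of 25 measured immediate early members at least 1.5-fold higher, and 0 lower, where 16.0% of all genes were higher and 8.06% lower, and Nr4a3 at 416 CPM in the library titled Blood and 474 CPM in the library titled Control. In B cell-like cells (61 and 37 cells) the immediate early median was -0.15 and the heat shock median 0.30.

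Outside the named classes, 2 clusters that scored highest for macrophage markers held more immediate early RNA in the library titled Blood. Their macrophage scores, 0.71 in cluster 8 and 0.57 in cluster 4, passed the limits on score and margin. They stayed unnamed because their 10 leading genes held markers of other classes (Ear2 and Ppbp in cluster 8, Ppbp in cluster 4) and 0 of macrophages. Cluster 8, led by Retnla, Lyve1 and Cd163, had sums of 26386 CPM in the library titled Blood and 19145 CPM in the library titled Control and a median of 0.43, with Egr1 at 1237 and 604 CPM and Fos at 4353 and 2899 CPM. Cluster 4, led by Cd36, Hmox1 and Mmp12, had sums of 16997 and 13384 CPM and a median of 0.32, with Egr1 at 299.8 and 147 CPM. The cells of both clusters had fewer UMIs in the library titled Blood, with medians of 5494 and 8209 in cluster 8 and 7156 and 10628 in cluster 4, and the part of depth was not tested. With these and the other unnamed clusters of highest macrophage score added, the macrophage-like immediate early median was 0.00 and the heat shock median -0.28. Those others were clusters 15.1, 15.2 and 2, and the leading genes of cluster 2 held the mast cell markers Mcpt4, Cma1, Cpa3 and Tpsb2. The heat shock median was -0.35 in cluster 8, -0.22 in cluster 4, 0.11 in cluster 15.1, -0.04 in cluster 15.2 and 0.03 in cluster 2.

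Among single cells the members were unevenly spread. After each cell was thinned to 2000 UMIs, the Fano factor, the variance over the mean, which is 1 for pure counting, was at least 2 for 19 of the 26 immediate early members in T cell-like cells titled Blood and 14 in those titled Control, and for 9 and 11 in macrophage-like cells. Thinned to 1000 UMIs, the counts were 5 and 4 in T cell-like and 4 and 5 in macrophage-like cells. Hspa1a in T cell-like cells had a Fano factor of 6.80 in the library titled Blood and 4.35 in the library titled Control, against 2.93 and 3.1 in macrophage-like cells. Fos had 5.02 and 4.29 in T cell-like cells and 3.12 and 3.33 in macrophage-like cells. A Fano factor grows with a gene's level, so genes of unlike level are not compared here. In neutrophil-like cells 1221 of 1773 cells titled Blood and 71 of 130 titled Control were too shallow for this measure. Within macrophage-like cells the closest pair was Fos and Dusp1, with a Pearson correlation of 0.56 over 4418 cells titled Blood and 0.53 over 4530 cells titled Control, and Hspa1a and Hspa1b correlated at 0.46 and 0.44. In T cell-like cells that HSP70 pair had 0.55 over 1418 cells titled Blood and 0.38 over 1106 titled Control. Pairs of 1 immediate early and 1 heat shock member had a median of 0.03 and 0.02 in macrophage-like cells and 0.05 and 0.03 in T cell-like cells. All cells of a library share its preparation, and these values are descriptions.

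Across the 25 clusters with at least 50 cells, the median standardised level of the immediate early members and that of the heat shock members had a Pearson correlation of -0.53 and a Spearman correlation of -0.30, and Hspa1a and Hspa1b one of 0.81 and 0.79. The clusters share 2 libraries and their depth, and no p is given. Of 5587 genes ranked, the 5 most like the immediate early profile over clusters were Clk4, Sertad1, Pim1, Kdm6b and Spty2d1, with Pearson correlations of 0.89 to 0.90 over the clusters, and the 5 most like the heat shock profile were Eef1d, Lias, Sms, Slc25a4 and Suclg1, with 0.83 to 0.86.

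Further genes of the same pathways were taken from 3 lists. Of 27 other immediate early genes 23 were measured in T cell-like cells, 3 at least 1.5-fold higher (Egr2, Gadd45b and Plk3) and 1 lower (Myc), named after their values were seen, with a median of 0.23, where 1.08% of all genes were higher and 1.06% lower. Gadd45b, a stress sensor, was at 267 CPM in the library titled Blood and 172 CPM in the library titled Control, and Myc, the growth regulator, at 32.2 and 66.3 CPM. Of 16 NF-κB targets 14 were measured there, 4 higher and 0 lower, with a median of 0.24, beside the same shares of all genes. The chemokine Ccl4 was at 2104 and 1305 CPM and Ccl3 at 517 and 308 CPM. Nfkb1 and Rel, the next in level, were not past 1.5-fold, with log2 ratios of 0.21 and 0.28. The others past it, Cxcl2 at 116 and 58.0 CPM and the cytokine Tnf at 43.9 and 17.9 CPM, were named after their values were seen. The neutrophil markers summed to 99.9 CPM in the T cell-like cells titled Blood and 29.1 CPM in those titled Control. Their part in the 4 differences past 1.5-fold was not tested. In NK cell-like cells Cxcl2 was at 163 CPM in the library titled Blood and 26.7 CPM in the library titled Control, beside the neutrophil marker sums of 144 and 20.8 CPM given for those cells; its level in neutrophil-like cells was 28872 and 21614 CPM. Of 26 other chaperone genes 22 were measured in T cell-like cells with 0 past 1.5-fold and a median of -0.02.

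In macrophage-like cells 20 of the 26 other chaperone genes were measured, 17 of them below 0 and 0 past 1.5-fold, with a median of -0.10, where 0.398% of all genes were higher and 0.887% lower. Ubb, which encodes polyubiquitin, was at 1029 CPM in the library titled Blood and 1294 CPM in the library titled Control, and the mitochondrial chaperone Hspd1 at 178 and 199 CPM. Klf2, a factor that restrains inflammatory activation, was the one further immediate early gene past 1.5-fold in macrophage-like cells, at 299 CPM in the library titled Blood and 525 CPM in the library titled Control. In the library titled Blood Klf2 was also lower in neutrophil-like cells, at 1352 and 2190 CPM, and in mesenchymal-like cells, at 342 and 646 CPM, but in NK cell-like cells it was at 1556 and 1337 CPM. In monocyte-like cells the 16 NF-κB targets had a median of -0.06, with 6 above and 10 below 0. Of them 2 were at least 1.5-fold higher and 1 lower, where 2.33% of all genes were higher and 1.44% lower. The 2 higher were Cxcl2, at 2609 CPM in the library titled Blood and 1374 CPM in the library titled Control, and Ptgs2, which encodes cyclooxygenase 2, at 344 and 225 CPM.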

How the data were processed

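The 2 single-cell 3' RNA libraries were analysed from the counts of UMIs per gene and cell that the authors deposited. The submitters' processing notes name Cell Ranger 3.1.0 and the build mm10. The annotation release, the cell-calling setting and any doublet removal are not stated there. A cell was kept from 300 genes and 500 UMIs upward if no more than 20% of its UMIs were mitochondrial, and 276 cells titled Blood and 162 titled Control were removed as Scrublet doublets. Cells were clustered with scanpy 1.11.5 and leidenalg 0.10.2 (2000 variable genes, 30 components, 15 neighbours, resolution 1, unclear clusters split at 0.5). Members and the wider lists were left out of the clustering genes. Naming a cluster took 3 detected markers, a marker score from 0.4 up and a margin from 0.1 up. Its 10 leading genes could also not hold more markers of another class than of its own, and a cluster with low UMIs needed an own marker there. These limits were chosen with the data in view, and class sizes rest on rebuilt names. The members and lists were chosen with earlier results of these data known.

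UMIs were summed per class and library, scaled to CPM, and compared as log2 ratios with 5 CPM added. Intervals are exact Poisson for a level and exact conditional binomial for a ratio, at 95%. A gene was measured at 10 CPM in either library and 10 counts in all, and called at 1.5-fold. The code was tested on simulated data. Named genes are all 35 members, up to 4 genes of each wider list per class with the highest mean CPM, the 5 genes most like each profile, and those said to be named after their values were seen. Promoters come from RefSeq on GRCm38.p6. Alternatives covered clustering, filters, scaling, shared barcodes, cluster weights and the pseudocount.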

Additional observations from a re-analysis of the deposited data

Results flagged for a closer look

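Hspa1a, the inducible HSP70 gene, had opposite directions in different cell classes: its log2 ratio of titled Blood over titled Control was 1.59 in neutrophil-like cells, -0.64 in macrophage-like cells and -0.61 in mesenchymal-like cells. With 1 library per group the difference between the classes was not tested. The neutrophil-like value rests on 660 UMIs in the library titled Blood and 17 in the library titled Control, and the mesenchymal-like value on cells of which most carry barcodes found in both libraries; without those barcodes it was -0.28.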

How the results depend on the processing

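No paired analysis was possible because each group holds 1 library and no result comes from a test. Over the alternatives, the immediate early median stayed between 0.38 and 0.52 in T cell-like cells and between 0.17 and 0.29 in NK cell-like cells, and the heat shock median of macrophage-like cells between -0.37 and -0.21. In macrophage-like cells the heat shock median, -0.29 as reported, was -0.36 without mitochondrial and ribosomal genes in the total, -0.36 when CPM was taken per cell and averaged, -0.37 with no filter on low genes and -0.21 with Hspa1a and Hspa1b summed. The immediate early median there was 0.0046, against -0.04, with the unnamed clusters of highest macrophage score added. In monocyte-like cells the heat shock median, -0.29, was -0.15 at a clustering resolution of 2, -0.13 with members kept for clustering and -0.16 under the stricter cell filter of 1000 UMIs and 10% mitochondrial UMIs. In conventional DC-like cells the immediate early median, -0.06, was -0.28 with the libraries clustered separately and 0.10 with CPM averaged over cells, and the heat shock median, 0.03, was 0.23 under that separate clustering. The heat shock median was 0.32 in T cell-like cells with clusters at equal weight, against 0.24, and 0.48 in NK cell-like cells with CPM averaged over cells, against 0.27. In mesenchymal-like cells leaving out all shared barcodes gave -0.12 for the immediate early and -0.48 for the heat shock median, against -0.44 and -0.24, and clustering each library on its own gave -0.34 for the heat shock median. Thinned to 1000 UMIs, 4 of all 35 members in macrophage-like cells titled Blood had a Fano factor of at least 2, against 11 at 2000 UMIs. The log2 ratio of Egr3 in neutrophil-like cells turned to -0.087 with equal weight for the 4 subclusters of at least 10 cells in each library, against 0.69. That of Tnfaip3 in mesenchymal-like cells turned to 0.86 without shared barcodes, against -0.78, but rests there on few UMIs. The neutrophil-like immediate early median lay between -0.09 and 0.17. Other than by their construction, the causes were not tested. Weighting of subclusters and all handling of shared barcodes, of the HSP70 pair and of unnamed clusters were chosen after seeing the data. Of the counts of members past 1.5-fold, 41 values moved by over 1.5 times and 343 did not. The small number of neutrophil-like cells titled Control, 130, limits the values of that class.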
